A study of Mus musculus with 6 samples.

Results

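This report concerns the genes of interferon signalling, of the interferon response and of class I antigen presentation in mouse cerebellar endothelial cells that carry or lack Frizzled4. The members were chosen by name from what these genes are known to do: receptors, transcription factors, RNA sensors, antiviral effectors, the Isg15 conjugation system, class I presentation and chemokines. A gene counted as measured where at least 1 probe set was assigned to its symbol alone, and its value came from the probe set with the highest mean over all arrays. Of 37 listed members, 36 were measured, among 18193 measured genes in all. Isg15, a ubiquitin-like modifier, was the exception, because its probe set is also assigned to Gm9706.

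The study measured total RNA of endothelial cells that had been pulled out of the cerebellum at postnatal day 16 with beads carrying an antibody to PECAM. Gene expression was read on 6 Affymetrix 3' arrays, 3 from Fz4-/- mice and 3 from wild-type mice, all of C57Bl6/129 mixed background and mixed gender. According to its title, the series asked about the long-term effect of losing Frizzled4 signalling on the transcriptome. The labels name a deletion in the whole animal, with no Cre line or promoter, so cells other than endothelial cells lack the receptor as well. They do not say whether a preparation is 1 animal or a pool, nor whether replicates came from separate preparations, so a p-value speaks only of the spread among these arrays, which may be technical. Values are log2 RMA signals. A difference is the Fz4-null mean minus the wild-type mean, and every group mean is given with its SD over 3 arrays.

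Interferons are secreted proteins that cells release on sensing viral nucleic acid. Type I interferons bind the Ifnar1 and Ifnar2 receptor pair and type II interferon binds Ifngr1 and Ifngr2, and both receptors act through Janus kinases on STAT and IRF transcription factors, which switch on a broad set of antiviral genes and the genes that load peptides onto class I molecules. Endothelial cells of the brain express both receptors, respond to interferons and can present antigen on class I molecules.

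In this series the target, Fzd4, read 3.04, 4.03 and 4.0 on the Fz4-null arrays and 10.80, 10.20 and 10.88 on the wild-type arrays, a difference of -6.94 (SE 0.34, limma adjusted p = 0.00965, or 0.127 with the replicate number as a block). All arrays matched their labels in this check. Markers of the labelled cell type were strongly expressed: the 17 endothelial markers had a mean level of 11.84 to 11.91 on the Fz4-null arrays and 11.66 to 11.77 on the wild-type arrays. Markers of other cells were also present, and 15 of the 16 measured microglia and macrophage markers had their lowest value on Fz4-null replicate 1. Their mean level was 5.37 on that array, 7.90 and 7.63 on the other Fz4-null arrays and between 7.78 and 7.94 on the wild-type arrays. That array also held the lowest value of all 7 fibroblast and meningeal, all 10 pericyte and smooth muscle, 7 of 9 astrocyte and 11 of 13 leukocyte markers. It held the lowest value of 3 of 8 neuron and 0 of 17 endothelial markers. The RMA scale has no 0, so no marker can be read as absent. Choroid plexus markers were lower in Fz4-null cells on more than that array: all 6 had a lower mean, and 4, among them Ttr, the transthyretin gene, lay lower without overlap, where 4.95% of all genes did. Their mean level was 5.06, 5.85 and 5.58 on Fz4-null replicates 1 to 3 and 6.51, 6.35 and 8.84 on wild-type replicates 1 to 3, and their median difference was -1.70, or -1.55 without Fz4-null replicate 1. None of the 6 passed the test, and the part of choroid plexus RNA in the members' values was not tested.

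None of the 36 measured members differed between the genotypes by limma's moderated test after Benjamini-Hochberg adjustment over 45037 probe sets. Such calls were rare in general: 4 of all 18193 genes (0.022%) and 5 probe sets (0.0111%) passed, and no probe set passed with the replicate number as a block. The adjusted p of every member was 1.00. Before adjustment, 1 member, Ifit2, had a p under 0.05, against 4.6% of all genes. With each gene's probe sets averaged the count was 4 (Irf3, Ifit2, Tap2 and Cxcl9), against 5.0% of all genes. It was 2 of 25 measured (Irf3 and Ifit2) without probe sets that can read several transcripts, against 4.53%, and 0 to 2 with 1 array left out. A difference above 0 was seen for 22 members (61.1%) and below 0 for 14, beside 51.3% of all genes above 0. The median member difference was 0.08, against 0.01 over all genes, and it lay between -0.03 and 0.12 when any 1 array was left out, the lower value without wild-type replicate 1, when 16 members were above 0.

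The differences ranged from -0.48 for Cxcl10 to 0.87 for Ifit2. In 29 members (80.6%) the difference was smaller than its own standard error, as it was in 68.5% of all genes. For 29 of 36 the 95% confidence interval, not adjusted for the number of genes, excluded a 2-fold difference in either direction, as it did for 67.4% of all genes. The 7 intervals that reached beyond 2-fold belonged to Irf7, Irf8, Ifit2, Oasl2, Rsad2, Psmb9 and Cxcl10. With 3 arrays in each group, their number limits this precision. RNA from mixed cells was hybridised, so fewer cells of a type and less RNA per cell cannot be told apart.

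**Figure D1:**
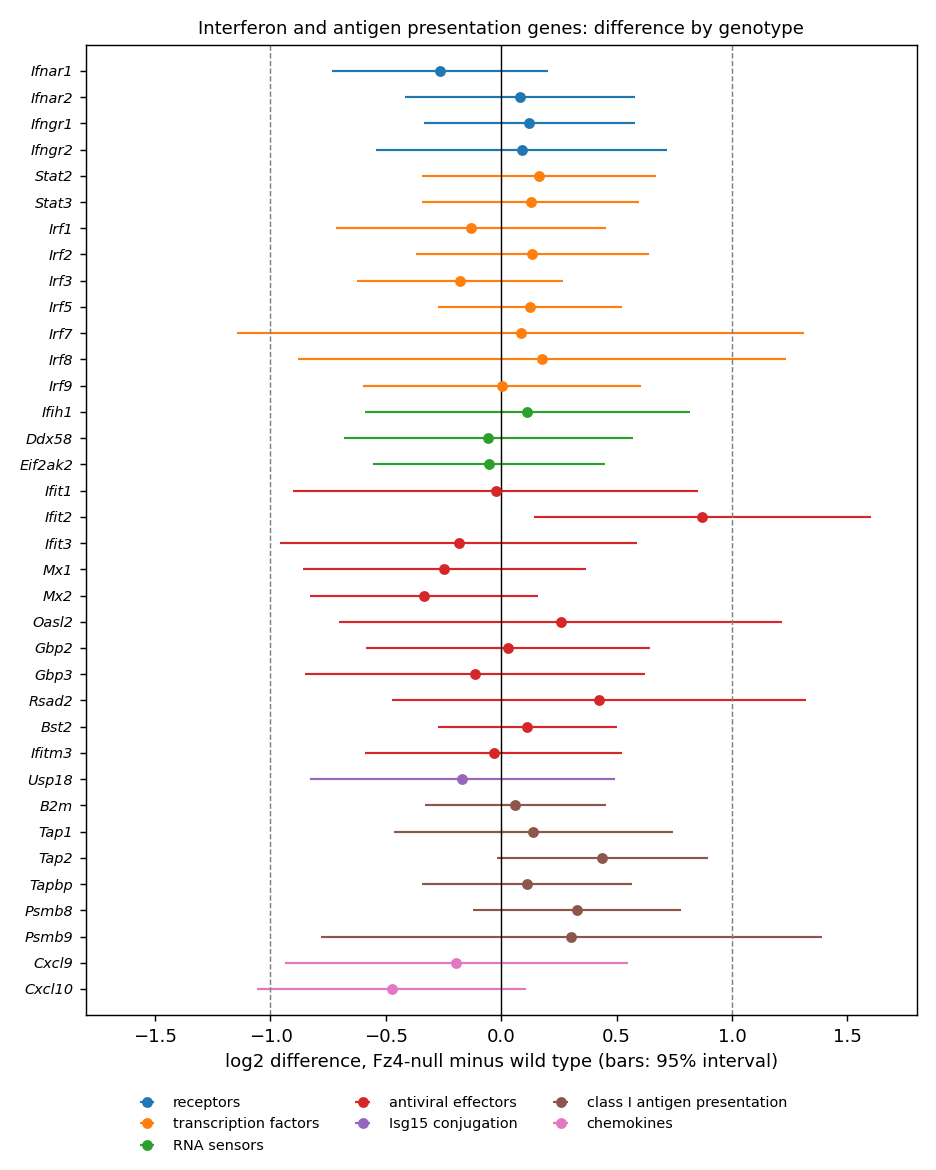
Difference between Fz4-null and wild-type cells (horizontal axis, log2) for each of the 36 measured members, grouped by role, with points for the limma estimate bars for its unadjusted 95% confidence interval and dashed lines at a 2-fold difference. The interval of Ifit2 lies wholly above 0, and those of the other 35 members include 0.

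In 3 members all Fz4-null arrays read above all wild-type arrays: Ifit2, Tap2 and Psmb8 (8.33% of members, against 4.59% of all genes). The groups of Psmb8 overlapped after quantile normalisation. No member read lower without overlap, where 4.95% of all genes did. Each omission of 1 array left 3 to 8 members higher without overlap, the 8 being without wild-type replicate 3, when 16.8% of all genes met that weaker condition. The count was 6 without Fz4-null replicate 2 (8.98% of all genes), and 5 without either Fz4-null replicate 3 (10.7%) or wild-type replicate 1 (6.78%).

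Promoter sequence was available for 33 of the 37 listed members, matched by symbol to RefSeq windows of 300 bases on GRCm38.p6, running from 250 bases before to 50 after a transcript start. Mx1, Mx2, Usp18 and Tap2 were not matched. Each window was searched for the core of the interferon-stimulated response element, which is TTTC, any 2 bases and TTTC again (GAAA, any 2 bases and GAAA on the other strand), and for the gamma-activated sequence, TTCNNNGAA, which is its own reverse complement. The response element core was in the windows of 15 members, against 3.99% of all 27025 genes with a window: B2m, Bst2, Cxcl10, Ddx58, Eif2ak2, Gbp2, Gbp3, Ifih1, Ifit1, Ifit3, Ifitm3, Irf2, Isg15, Rsad2 and Stat2. The gamma-activated sequence was in those of 10 members, against 9.55% of all genes: Bst2, Eif2ak2, Ifit2, Ifitm3, Ifnar1, Ifnar2, Irf1, Irf2, Irf8 and Psmb8. The motifs overlapped each other in 2 member windows. Windows with either motif occurred among members that read higher and among members that read lower, and a match of letters is a description of the window, not evidence that a factor binds there.

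The windows of 4 members with either motif are shown 5′ to 3′ on the gene's own strand, because Ifit2 and Psmb8 had groups that did not overlap, Cxcl10 had the lowest difference of all members, and Rsad2 had the largest after Ifit2 among the effectors. Capitals mark the motif. The Ifit2 window is chr19:34550444-34550743 on the plus strand, with a gamma-activated sequence that begins 241 bases before the transcript start of this window. RefSeq has 2 windows for Ifit2, at different transcript starts, and the other holds neither motif. In the Psmb8 window, chr17:34197945-34198244 on the plus strand, such a sequence begins 97 bases before the start. The Rsad2 window is chr12:26456403-26456702 on the minus strand, with a response element core 120 bases before the start. In the Cxcl10 window, chr5:92348840-92349139 on the minus strand, the core lies 213 bases before the start.
Ifit2: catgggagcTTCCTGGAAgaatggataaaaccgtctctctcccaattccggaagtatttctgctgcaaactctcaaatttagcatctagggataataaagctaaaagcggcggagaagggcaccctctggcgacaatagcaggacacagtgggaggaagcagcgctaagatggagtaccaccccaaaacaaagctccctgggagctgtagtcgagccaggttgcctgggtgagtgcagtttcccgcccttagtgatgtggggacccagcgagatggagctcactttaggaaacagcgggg
Psmb8: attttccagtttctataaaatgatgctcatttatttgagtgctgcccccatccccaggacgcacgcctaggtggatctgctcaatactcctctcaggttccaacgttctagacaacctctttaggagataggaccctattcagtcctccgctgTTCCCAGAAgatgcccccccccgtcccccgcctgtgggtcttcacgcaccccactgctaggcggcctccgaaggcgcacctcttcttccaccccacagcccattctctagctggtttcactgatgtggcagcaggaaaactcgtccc
Rsad2: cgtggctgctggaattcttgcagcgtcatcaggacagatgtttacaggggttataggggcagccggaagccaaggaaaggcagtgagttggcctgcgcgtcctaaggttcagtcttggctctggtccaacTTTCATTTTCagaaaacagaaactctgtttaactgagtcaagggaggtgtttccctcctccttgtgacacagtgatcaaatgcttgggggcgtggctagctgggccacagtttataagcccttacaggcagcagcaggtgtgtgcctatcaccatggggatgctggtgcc
Cxcl10: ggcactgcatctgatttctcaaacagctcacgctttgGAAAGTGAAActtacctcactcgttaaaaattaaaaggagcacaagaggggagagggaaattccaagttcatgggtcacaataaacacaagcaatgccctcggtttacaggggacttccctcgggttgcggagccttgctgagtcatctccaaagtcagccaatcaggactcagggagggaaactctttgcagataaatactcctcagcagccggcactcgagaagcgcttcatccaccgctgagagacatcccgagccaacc

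Among the 4 receptor chains, 3 read slightly higher and 1 lower in Fz4-null cells, with a median difference of 0.08. Ifnar1, the chain of the type I receptor that pairs with Tyk2, read 10.82, 10.58 and 10.64 on Fz4-null replicates 1 to 3 and 10.79, 10.81 and 11.23 on wild-type replicates 1 to 3. Its difference was -0.26 (SE 0.20, 95% interval -0.73 to 0.20), and only Fz4-null replicate 1 kept the groups from separating. A dimmer probe set of Ifnar1 differed the other way, by 0.26, so that the mean of both was -0.001. Leaving out wild-type replicate 3, the highest array, brought the difference to -0.12, and the other omissions of 1 array gave -0.34 to -0.21. Ifnar2, the chain that binds type I interferon most tightly, read 10.18, 10.14 and 10.22 against 9.86, 9.98 and 10.46. The Fz4-null values lay inside the wild-type range, and the difference was 0.08 (SE 0.21). Ifngr1, the ligand-binding chain of the type II receptor, read 8.14, 7.83 and 7.96 against 7.82, 7.66 and 8.07, again with overlap, for a difference of 0.12 (SE 0.19). Ifngr2, its signalling partner, differed by 0.09. All 4 intervals excluded a 2-fold difference, and wild-type replicate 3 gave the highest value of Ifnar1, Ifnar2 and Ifngr2.

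The 9 transcription factors comprised STAT proteins, which carry the signal from the receptors to the nucleus, and interferon regulatory factors. Of these, 7 read higher and 2 lower, with a median of 0.12, and every difference was smaller than its standard error. Stat2, which joins Irf9 in the complex that reads the response element, read 7.33, 6.93 and 7.31 in Fz4-null cells and 7.07, 6.76 and 7.25 in wild-type cells. Each Fz4-null array was above the wild-type array of the same number, yet the groups overlapped, and the difference was 0.16 (SE 0.21). Irf9 itself differed by 0.002 (95% interval -0.60 to 0.60), with Fz4-null replicate 1 the highest array at 9.43 and Fz4-null replicate 2 the lowest at 8.66.

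Irf3, a factor activated by RNA and DNA sensors, had the lowest difference of these 9, -0.18 (SE 0.19). It read 8.94, 8.65 and 8.74 in Fz4-null cells and 8.78, 8.93 and 9.16 in wild-type cells, so Fz4-null replicate 1 was above 2 wild-type arrays. A dimmer probe set of Irf3, with a mean signal of 4.75 over all arrays, differed by -1.05 (limma unadjusted p = 0.0200). The further probe sets of Irf3 differed by -0.18 and -0.33. That dim set alone gave the Irf3 value without probe sets that can read several transcripts, and it also entered the averaged value. Irf5, a factor downstream of Toll-like receptors, read 8.42, 8.43 and 8.21 against 8.25, 8.30 and 8.14. Its spread was small, with means of 8.35 ± 0.12 and 8.23 ± 0.08, but its difference of 0.12 (SE 0.17) turned to -0.13 when all its probe sets were averaged. Irf7, the factor that amplifies type I interferon production, showed the widest interval of all members, -1.14 to 1.31. Its values did not follow genotype: 7.49, 6.12 and 7.57 in Fz4-null cells and 6.53, 6.54 and 7.86 in wild-type cells.

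Irf8, a factor best known from myeloid cells, read 5.85, 7.41 and 6.83 against 6.49, 7.06 and 6.01, a difference of 0.18 (95% interval -0.88 to 1.23). The difference was 0.60 without Fz4-null replicate 1 and -0.18 without Fz4-null replicate 2. Its lowest value was on Fz4-null replicate 1, the array with low markers of microglia and macrophages and of several other non-endothelial cells. The part of those cells in its value was not tested. Stat3, which relays interleukin-6 type signals, differed by 0.13. Irf2, which competes with Irf1 for the same sites, differed by 0.14, and Irf1 by -0.13.

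The 3 RNA sensors differed by 0.11 or less in size. Ifih1, the sensor of long double-stranded RNA, read 8.81, 8.38 and 8.58 in Fz4-null cells and 8.03, 8.34 and 9.06 in wild-type cells, for a difference of 0.11 (SE 0.30). The wild-type arrays alone spanned a wider range than all Fz4-null arrays. Ddx58, the RIG-I sensor of uncapped viral RNA, read 8.69, 7.86 and 8.22 against 8.13, 8.22 and 8.58, a difference of -0.06 (SE 0.26). Eif2ak2, the kinase PKR that halts translation on binding double-stranded RNA, read 8.83, 8.50 and 8.18 against 8.57, 8.61 and 8.50, a difference of -0.05 (SE 0.21). In both, the highest and the lowest array were Fz4-null. The sign of these 3 differences was not stable when arrays were left out, with ranges of -0.11 to 0.41, -0.27 to 0.14 and -0.22 to 0.11.

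Antiviral effectors held the member with the largest difference, while the group as a whole was centred near 0: 5 of 11 read higher, 6 lower, and the median was -0.02. Ifit2, an RNA-binding protein that hinders translation of viral RNA, read 7.98, 6.85 and 7.50 on the Fz4-null arrays and 6.75, 6.38 and 6.58 on the wild-type arrays. All Fz4-null values were above all wild-type values, although Fz4-null replicate 2 exceeded wild-type replicate 1 by little. The means were 7.44 ± 0.57 and 6.57 ± 0.19, a difference of 0.87 (SE 0.31, 95% interval 0.14 to 1.6), or 1.83-fold. The limma p was 0.0258 before adjustment and 1.00 after it, and with the replicate number as a block these were 0.00828 and 0.479. The block fit gave 8.89% of all genes an unadjusted limma p under 0.05, against 4.6% in the main fit. Leaving out 1 array moved the difference between 0.60 and 1.17. The limma p before adjustment was no longer under 0.05 when replicate 1 or 3 of Fz4-null, or replicate 2 or 3 of wild type, was left out.

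The genes next to Ifit2 on chromosome 19 did not share its difference. Ifit3, which stabilises Ifit1, differed by -0.18, with 9.01, 8.37 and 8.33 in Fz4-null cells and 8.97, 9.13 and 8.16 in wild-type cells. Ifit1, which binds RNA lacking the host's cap methylation, differed by -0.02, with 8.47, 7.18 and 7.46 against 7.64, 8.10 and 7.45. In both, the groups overlapped. Fz4-null replicate 1 was the highest array for Ifit1 and Ifit2, and for Ifit3 only wild-type replicate 2 read higher.

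Rsad2, or viperin, which makes a chain-terminating nucleotide that blocks viral RNA synthesis, read 10.35, 10.26 and 10.01 in Fz4-null cells and 10.41, 10.004 and 8.94 in wild-type cells. Its difference of 0.42 (SE 0.38, 95% interval -0.48 to 1.32) rested on wild-type replicate 3, the lowest array, and was 0.0009 without it. Its other probe sets differed by 0.02 and 0.38. Mx2, a dynamin-like GTPase, read 5.31, 5.41 and 5.86 against 5.80, 5.80 and 5.99, and was lower in Fz4-null cells by number in all 3 pairs of arrays. The difference was -0.34 (SE 0.21, 95% interval -0.83 to 0.16), and Fz4-null replicate 3 kept the groups from separating. Mx1, its relative, differed by -0.25 and was the only member below the median signal of every array.

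The remaining effectors differed by 0.26 or less in size. Oasl2, a member of the oligoadenylate synthetase family, differed by 0.26 (95% interval -0.70 to 1.22), with 7.83, 6.93 and 8.28 in Fz4-null cells against 7.14, 7.13 and 7.99. Gbp2 and Gbp3, GTPases that attack intracellular pathogens, differed by 0.03 and -0.11. Gbp3 was nearly level across the wild-type arrays, at 9.70, 9.66 and 9.79, and across Fz4-null replicates 1 and 3, at 9.95 each, while Fz4-null replicate 2 read 8.91. Bst2, or tetherin, which holds budding virus on the cell surface, differed by 0.11, and Ifitm3, which blocks viral fusion in endosomes, by -0.03. Their 95% intervals were -0.28 to 0.50 and -0.59 to 0.53.

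Of the members of the Isg15 conjugation system only Usp18 was measured, the protease that removes Isg15 and dampens signalling at Ifnar2. It read 8.50, 7.72 and 8.54 in Fz4-null cells and 8.37, 8.21 and 8.69 in wild-type cells, with means of 8.26 ± 0.46 and 8.42 ± 0.25. The difference was -0.17 (SE 0.28, 95% interval -0.83 to 0.49) and its sign turned without Fz4-null replicate 2, the lowest array, to 0.10. Genes that attach Isg15, counted among the other interferon-stimulated genes and named after their values were seen, read higher without passing the test. Uba7, the activating enzyme, differed by 0.41 (SE 0.48). Ube2l6, the conjugating enzyme, differed by 0.71 (SE 0.31, limma adjusted p = 1.00), with overlap between the groups. Herc6, a ligase for Isg15 in mice, differed by 0.30 (SE 0.16), with all Fz4-null arrays above all wild-type arrays, as in 4.59% of all genes.

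The 6 members of class I antigen presentation all read higher in Fz4-null cells, by a median of 0.22, and none passed the test. All 6 also read higher after quantile normalisation or median centring, and 5 of 6 did without wild-type replicate 1 or without wild-type replicate 3. Tap2, a subunit of the transporter that carries peptides into the endoplasmic reticulum, read 8.64, 8.31 and 8.19 in Fz4-null cells and 7.82, 7.98 and 8.04 in wild-type cells. The groups did not overlap, with means of 8.38 ± 0.23 and 7.95 ± 0.11. The difference was 0.44 (SE 0.19, 95% interval -0.02 to 0.89), or 1.35-fold, with a limma p of 0.0580 before adjustment, and it was 0.82, 0.33 and 0.16 between arrays of the same number. Psmb8, a catalytic subunit of the immunoproteasome that cuts proteins into peptides, read 8.72, 8.74 and 8.61 against 8.09, 8.53 and 8.47. Here too the groups did not overlap, although only wild-type replicate 1 stood clearly below the rest. The difference was 0.33 (SE 0.19, 95% interval -0.12 to 0.78), or 1.26-fold, and it lay between 0.19 and 0.41 when 1 array was left out.

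Psmb9, the other immunoproteasome subunit among the members, read 7.80, 6.76 and 8.07 in Fz4-null cells and 6.72, 6.99 and 8.01 in wild-type cells. The array numbered 3 was the highest in both genotypes, while the arrays numbered 1 lay 1.08 apart. The difference was 0.30 (SE 0.46, 95% interval -0.78 to 1.39). It was 0.04 without Fz4-null replicate 3 or wild-type replicate 1, and 0.70 without Fz4-null replicate 2 or 0.69 without wild-type replicate 3. Psmb10, the third immunoproteasome subunit and not a member, differed by 0.02. Tap1, which pairs with Tap2 in the transporter, differed by 0.14, with 7.83, 8.25 and 8.40 against 7.62, 8.22 and 8.23. Psmb9, Tap1, Psmb8 and Tap2 lie next to one another in this order on chromosome 17, and the RefSeq promoter windows of Tap1 and Psmb9 share 275 bases, chr17:34187306-34187580. For both genes of this shared window the genotype difference was smaller than its standard error. Tapbp, or tapasin, which bridges the transporter to class I molecules, differed by 0.11. B2m, the light chain of every class I molecule, had the tightest values, 12.84, 12.79 and 12.83 against 12.89, 12.76 and 12.62, and a difference of 0.06.

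**Figure D2:**
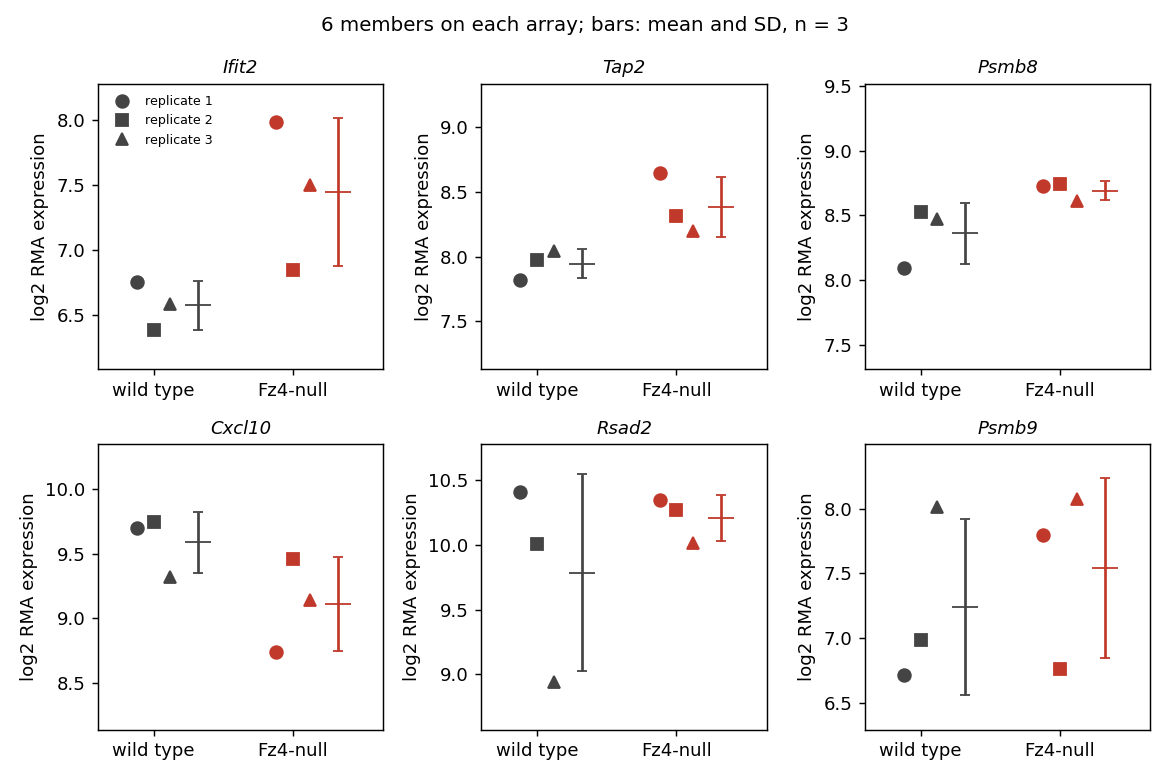
Log2 RMA signal (vertical axis) of Ifit2, Tap2, Psmb8, Cxcl10, Rsad2 and Psmb9 on each array, one panel a gene, with a point per array shaped by replicate number, and the mean and SD of each group beside its points. Ifit2, Tap2 and Psmb8 show groups that do not overlap, the Fz4-null arrays of Cxcl10 average lower with overlap, Rsad2 has 1 low wild-type array at 8.94, and Psmb9 overlaps throughout.

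Both chemokines read lower in Fz4-null cells and neither passed the test. Cxcl10, which draws T cells through the receptor Cxcr3, read 8.74, 9.46 and 9.14 in Fz4-null cells and 9.69, 9.75 and 9.32 in wild-type cells. Fz4-null replicate 2 was above wild-type replicate 3, so the groups overlapped, while each Fz4-null array was below the wild-type array of its own number, by -0.96, -0.29 and -0.18. The means were 9.11 ± 0.36 and 9.59 ± 0.23, a difference of -0.48 (SE 0.24, 95% interval -1.06 to 0.11), with a limma p of 0.0943 before adjustment. Its lowest value was on Fz4-null replicate 1, and the difference was -0.29 without that array. Whether the low markers of microglia, macrophages and other non-endothelial cells on that array had a part in it was not tested. Cxcl9, a second ligand of Cxcr3, read 5.43, 4.48 and 5.28 against 5.64, 5.13 and 5.01, a difference of -0.19 (SE 0.31) that turned to 0.10 without Fz4-null replicate 2. A dimmer probe set of Cxcl9, below the median signal of every array, differed by -0.84 (limma unadjusted p = 0.0272).

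The arrays differed from one another in the members by amounts like those between genotypes. Relative to each member's wild-type mean, the median member deviation was 0.24, -0.11 and 0.11 on Fz4-null replicates 1 to 3 and -0.06, -0.03 and 0.11 on wild-type replicates 1 to 3. The opposite ends of this range were both Fz4-null. Centring on the wild-type mean favours this, because it draws the wild-type arrays towards 0. Fz4-null replicate 1 held the highest value of 12 members (33.3%, against 18.6% of all genes), among them Ifit1, Ifit2, Irf9, Ddx58 and Tap2. Fz4-null replicate 2 held the lowest value of 14 members (38.9%, against 15.2% of all genes), among them Irf7, Ifit1, Oasl2, Gbp2, Gbp3 and Usp18. On Fz4-null replicate 1 itself only Irf8, Mx2 and Cxcl10 had their lowest value. Because of this spread the effectors' median moved from -0.02 to 0.23 without Fz4-null replicate 2 and to -0.09 without Fz4-null replicate 1.

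**Figure D3:**
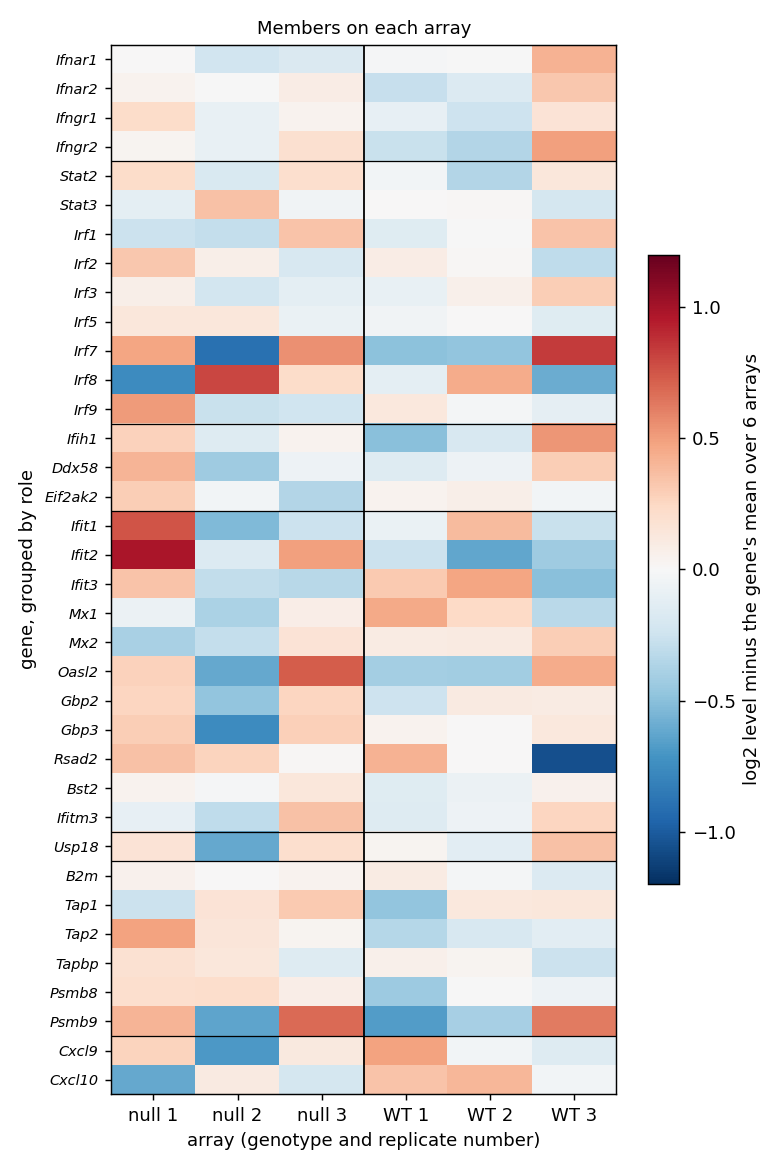
Heat map of the 36 measured members (rows, grouped by role) on the 6 arrays (columns), coloured by log2 level minus the gene's mean over the 6 arrays, from blue (lower) to red (higher). Blue is most frequent on Fz4-null replicate 2, which held the lowest value of 14 members, Ifit2 is darkest red on Fz4-null replicate 1, and Rsad2 is darkest blue on wild-type replicate 3.

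Arrays numbered 3 shared part of their values across genotypes: over all probe sets, their deviations from group means correlated at 0.57. Numbers 1 and 2 were not clearly matched, at 0.24 and 0.30 for like numbers and 0.12 and 0.26 for unlike ones. The array numbered 3 was the highest of its group in both genotypes for 11 of 36 members (30.6%), beside 26.9% of all genes: Ifnar2, Ifngr2, Irf1, Irf7, Mx2, Oasl2, Bst2, Ifitm3, Usp18, Tap1 and Psmb9. It was the lowest in both for 6 members (16.7%), beside 24.1% of all genes: Irf2, Irf5, Eif2ak2, Ifit3, Rsad2 and Tapbp. These shares lay near or below those of all genes. Set against the wild-type array of its own number, the Fz4-null array read higher in all 3 pairs for 9 members, beside 17.6% of all genes: Stat2, Irf2, Irf5, Ifit2, Bst2, Tap1, Tap2, Tapbp and Psmb8. Of the 6 class I members 4 were among them. It read lower in all 3 pairs for Mx2 and Cxcl10, beside 15.8% of all genes.

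Other genes of the same pathways gave a like picture. Of 141 listed genes outside the members, 120 were measured, none passed the test, 66 read higher and 54 lower, and the median difference was 0.05. Without overlap 5 of the 120 read higher (4.17%), among them Herc6, Ddx60 and Cx3cl1, and 6 read lower (5.0%). Among all genes these shares were 4.59% and 4.95%. Of the 7 measured interferon ligands 2 read higher and 5 lower. Ifna1, a type I interferon, had the lowest p among them and read 4.08, 4.42 and 4.22 in Fz4-null cells against 4.73, 4.49 and 4.65, a difference of -0.39 (SE 0.18). The groups did not overlap, as was so for Ifng, the type II interferon, named after its values were seen, at -0.18 (SE 0.17). Both ligands lay below the median signal of every array, and 4.95% of all genes read lower without overlap. Among 9 kinases and feedback genes, 4 read higher and 5 lower, with Tyk2, the kinase bound to Ifnar1, at 0.49 (SE 0.38). The 3 other receptors had 1 higher and 2 lower, with Il27ra, a chain of the interleukin-27 receptor, at -0.22. The Tyk2 difference ran from 0.23 without Fz4-null replicate 3 to 0.83 without wild-type replicate 3, and was 0.74 without Fz4-null replicate 1.

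Of 15 adaptors and kinases of nucleic acid sensing, 9 read higher and 6 lower. Ifi202b, a DNA-binding protein of the interferon-inducible p200 family, read 5.82, 3.43 and 5.99 in Fz4-null cells and 7.86, 7.51 and 5.95 in wild-type cells. Its difference was -2.03 (SE 0.79, limma adjusted p = 1.00), or -1.21 without Fz4-null replicate 2, and the groups touched, with wild-type replicate 3 between Fz4-null arrays. The 56 other interferon-stimulated genes split into 34 higher and 22 lower, with a median of 0.09. Ddx60, a helicase that assists RNA sensing, read 5.53, 6.04 and 5.72 in Fz4-null cells against 4.89, 4.82 and 5.22. The groups did not overlap, and the difference was 0.79 (SE 0.21, limma adjusted p = 0.885).

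The 13 other class I genes resembled the class I members in sign and median, with 10 higher and 3 lower and a median of 0.21. Of the 13, 0 read higher without overlap, and of the 6 members 2 did, beside 4.59% of all genes. Erap1, the peptidase that trims peptides for class I molecules, was at 0.67 (SE 0.38, or 0.44 to 1.06 with 1 array left out, these ends falling without replicates 2 and 3 of wild type), and the heavy chains H2-K1 and H2-D1, chosen here after their values were seen, were at 0.21 and 0.18. Without 1 array at a time the median ranged from 0.04 to 0.33 in these 13 genes and from 0.14 to 0.31 in the 6 members. For comparison, the 17 endothelial markers had a median of 0.08 with 13 above 0, and 51.3% of all genes were above 0.

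Class II genes, whose products present antigen to CD4+ T cells and are chiefly found on professional antigen-presenting cells, depended on 1 array. Of 11 measured, 3 read higher and 8 lower, with a median of -0.27 that became 0.41 without Fz4-null replicate 1. Cd74, the invariant chain, named after its values were seen, read 6.61, 9.15 and 10.71 in Fz4-null cells and 8.68, 9.26 and 9.97 in wild-type cells. H2-Ob, a chain of a class II chaperone, had the lowest p of the list and read higher, at 0.76 (SE 0.28, limma adjusted p = 1.00). The 6 other chemokines had a median of -0.53 with Fz4-null replicate 1 and -0.07 without it. Among them Cx3cl1, the membrane-bound chemokine of the microglial receptor Cx3cr1, read 8.58, 8.83 and 8.45 in Fz4-null cells against 7.59, 8.04 and 7.96, without overlap. Its difference was 0.76 (SE 0.21, limma adjusted p = 0.891), and it was 0.41 when its probe sets were averaged.

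On Fz4-null replicate 1 the lists therefore stood on opposite sides of the wild-type mean. The median deviation there was -3.10 for fibroblast and meningeal, -2.71 for microglia and macrophage, -2.15 for astrocyte and -1.38 for pericyte and smooth muscle markers. It was -2.02 for the other chemokines and -0.83 for class II genes. For the members it was 0.24, and for the other interferon-stimulated genes and the endothelial markers 0.16 each. Leukocyte markers, 13 of 15 measured, had mean levels of 4.24, 5.22 and 5.86 in Fz4-null cells and 4.96, 5.40 and 5.31 in wild-type cells. Without that array the member median was 0.01 and the microglia and macrophage median 0.02, where with it they were 0.08 and -0.85. The part of other cells in the members' values was not tested.

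**Figure D4:**
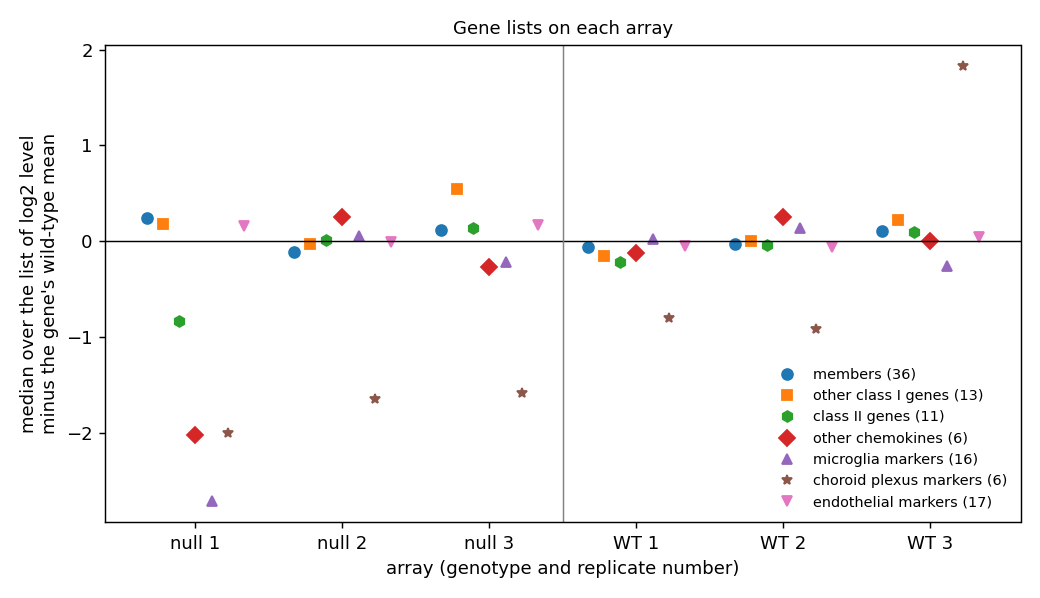
Median deviation from the wild-type mean (vertical axis, log2) of 7 gene lists on each of the 6 arrays, with a point per list: the members, other class I genes, class II genes, other chemokines, microglia and macrophage markers, choroid plexus markers, and endothelial markers. On Fz4-null replicate 1 microglia and macrophage markers reach -2.71 and class II genes -0.83, while the members stand at 0.24. Choroid plexus markers are below 0 on all Fz4-null arrays and, at -0.80 and -0.92, on wild-type replicates 1 and 2, and at 1.82 on wild-type replicate 3.

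Where a member had several probe sets, they gave a measure of how far its value rests on 1 of them. This was so for 17 members, which had 27 further probe sets, and 19 of these had the same sign as the one used. The 8 with the opposite sign belonged to Ddx58, Eif2ak2, Ifnar1, Ifnar2, Irf5, Stat3 and Tap1. Besides Ifnar1, Irf3 and Cxcl9, described with their roles, Irf5 had 1 at -0.38, Ddx58 had others at 0.18 and -0.07, Irf8 had 1 at 0.49, and the others of Stat3 lay between -0.04 and 0.17.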

How the data were processed

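Total RNA was hybridised to 3' arrays, 6 in all. The deposited values are log2 signals that the authors obtained with RMA, per the submitters' processing notes; the sources used here give neither its implementation nor its version, and no scanner files were used, so background correction was not varied. RMA equalises arrays, which would hide a shift of all genes, and compresses dim probe sets. Of 45101 probe sets, 45037 were not controls and entered the fit; 34945 of these had 1 gene symbol in the platform annotation, 932 several and 9160 none.

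The comparison of genotypes used R 4.3.3 and limma 3.58.1 (eBayes after lmFit, with no variance trend, two-sided, 4 residual degrees of freedom before moderation), with Benjamini-Hochberg adjustment over all 45037 probe sets and a call under 0.05. A gene took its probe set with the highest mean. An exact permutation test of 3 arrays against 3 cannot go below 0.1 and was not used. The script was tested on simulated data. No arrays held the same values (at most 0.351% of values were identical).

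Both genotypes carry replicate numbers in the sample titles. Deviations from group means of arrays with the same number correlated at 0.24, 0.30 and 0.57, all above the minimum of 0.1 taken to mean that numbers pair the samples, while unlike numbers reached 0.12 and 0.26. The main fit has no block, and the blocked value stands beside results it changes.

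The members and lists were chosen with earlier results of these data known. Every measured member is named. Array values are given for up to 3 members of each role with the lowest p, for members whose groups do not overlap and, chosen after their values were seen, for some others. From each other list the gene with the lowest p is named. All 36 members matched RefSeq by gene ID under the same symbol. Alternatives were quantile normalisation, median centring, both filters on dim probe sets, a variance trend, averaging each gene's probe sets, probe sets for single transcripts only, a threshold of 0.1, the replicate block and each array left out.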

Additional observations from a re-analysis of the deposited data

How the results depend on the processing

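No member was called under any alternative tried, and the median member difference stayed within the spread between arrays, from -0.03 to 0.12. Over all probe sets 5 calls became 8 at an adjusted p under 0.1, 0 with both arrays numbered 3 left out (an alternative chosen after seeing the data), and 0 to 2 with 1 array left out. With the replicate number as a block 0 probe sets were called, so all 5 calls, Fzd4 included, were lost, and no member's call changed. Counts of members without overlap varied with the setting. The 3 higher became 1 (4.49% of all genes) without probe sets that can read several transcripts, when 25 members were measured. Tap2 and Psmb8 had no other probe sets and were not measured there, so this drop does not show that their groups overlapped. The count was 3 to 8 with 1 array left out (6.78% to 16.8% of all genes). The 0 lower became 1 after quantile normalisation (Ifnar1; 4.44% of all genes), 2 with each gene's probe sets averaged (Irf3 and Cxcl9; 5.35%), 1 without probe sets for several transcripts (Irf3; 4.94%), and 0 to 3 with 1 array left out (7.44% to 12.7%).

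Leaving out some 1 array turned the sign of 20 of 36 members, and turned it or moved the difference by over 1.5 times in 33, all but Ifit2, Mx2 and Tap2. Among the genes given array by array or named from other lists, with probe sets averaged, Irf5 was -0.13 and Ddx58 0.020, and without both arrays numbered 3 Ddx58 was 0.10 and Eif2ak2 0.076. In these genes leaving out 1 array gave ranges across 0 for Ddx58 (-0.27 to 0.14), Usp18 (-0.31 to 0.10), Cxcl9 (-0.38 to 0.10), Eif2ak2 (-0.22 to 0.11), Ifnar2 (-0.037 to 0.26), Ifih1 (-0.11 to 0.41) and Il27ra (-0.53 to 0.23). The cause was not tested. The number of arrays limits all of these values, and Mx1 and the dimmer Cxcl9 probe set lie where signal over background is weakest.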
